A study of Mus musculus with 6 samples.

Results

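The 10 genes described here, Peg3, Peg10, Sgce, Mest, Snrpn, Ndn, Plagl1, Impact, Nnat and Zrsr1, are imprinted genes transcribed from the chromosome inherited from the father. They were taken by name from a table of 27179 genes and lie outside the Dlk1-Dio3 cluster and the distal clusters of chromosome 7. The libraries came from mouse embryonic stem cells of the ES-E14TG2a line, whose Trim71 carried a FLAG tag in both groups. In 3 libraries Trim71 was otherwise unaltered (WT), and in 3 it held the hydrocephalus-linked change R783H in this TRIM-NHL protein, which binds RNA. All cells grew on gelatin with leukemia inhibitory factor, the GSK3 inhibitor CHIR99021 and the MEK inhibitor PD0325901, and oligo(dT)-selected RNA was sequenced. What the replicate letters A, B and C stand for is not given, so the p-values measure the spread between these libraries, which may be technical. Whether each genotype rests on more than 1 clone is likewise not given. Counts per gene cannot show the residue change, so the labels were not checked by it.

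Imprinted genes are expressed from 1 parental copy because the other was marked by DNA methylation in the egg or sperm. At most of the loci described here the maternal copy is methylated at a CpG-rich control region and silent. In embryonic stem cells the mark is kept through cell division by ZFP57, which binds methylated TGCCGC, its partner TRIM28 and the maintenance methyltransferase DNMT1. Imprinted expression is known to drift between stem cell lines and cultures. The counts do not separate the parental copies, so the levels below are totals of both.

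Promoter windows of 250 bases before a transcript start were read from RefSeq on GRCm38.p6 for 7 of the 10 genes, with 12 windows in all, while Peg10, Sgce and Impact were not matched. The letters TGCCGC were searched on both strands and found in Plagl1 and Mest, 2 of the 7 genes. Over all genes they stood in 8.68% of 32851 windows of that length, a share per window and not per gene. The Mest windows that held them overlap almost wholly. The Mest window at chr6:30737800-30738049 (plus strand) is shown whole, because it holds the letters at 2 places and overlaps no annotated exon. A 30-base stretch is shown for Plagl1 at chr10:13090731-13090760 (plus strand), which held the letters once and was the gene that rose most. Capitals mark the letters, here as their reverse complement. The windows of the 7 genes held 2 to 19 CG dinucleotides, fewest at Snrpn and most at Plagl1, against a median of 6 over all windows.
Mest: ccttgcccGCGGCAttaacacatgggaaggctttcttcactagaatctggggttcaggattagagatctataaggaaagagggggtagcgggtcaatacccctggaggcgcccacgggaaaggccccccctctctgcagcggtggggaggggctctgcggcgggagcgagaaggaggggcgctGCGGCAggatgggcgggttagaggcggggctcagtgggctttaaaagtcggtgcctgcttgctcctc
Plagl1: tggcgtgttgcGCGGCAaagcccacggcat

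The 2 genes that fell most, Ndn and Nnat, shared another string just before their RefSeq starts, GCATGCGC, which is part of the motif of the transcription factor NRF1. It was searched on both strands after the windows had been read. It stood in no other of the 7 genes and, counted per window and not per gene, in 2.26% of all windows. The Nnat match is palindromic, so that the 2 strands match at overlapping positions. The stretches are at chr7:62348244-62348273 and chr2:157560041-157560070, both on the plus strand, with the string in capitals. The longer GENCODE M21 model of Ndn, whose coordinates are given below, starts upstream, so that its whole window lies in an exon of that model.
Ndn: cttcccaacacGCATGCGCaatatcgcatc
Nnat: atcccccaagcGCGCATGCGCacttaggtg
Among 549 tested genes with the string in a window the median log2 fold change was -0.035, against 0.022 among 10766 tested genes with a window. Of the former 35.7% were called lower and 31.0% higher, against 31.7% and 33.4%. For TGCCGC the median was 0.011 among 1775 tested genes, with 33.2% called lower and 33.6% higher. A match describes letters in a window and not a bound site.

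Total counts ran from 27807385 to 29079670 in R783H and from 20894277 to 25174121 in WT, so every R783H library was deeper. Levels are in CPM, each count being divided by its library total after TMM scaling and brought to a common total. The 8 pluripotent cell markers summed to 6957 to 7041 CPM in WT and 6790 to 6924 CPM in R783H. Summed markers of primitive endoderm lay at 5.18 to 7.62 CPM in WT and 10.3 to 11.1 CPM in R783H, and those of fibroblasts at 5.87 to 6.56 and 7.53 to 8.53 CPM. Those of mesoderm lay at 19.8 to 22.6 CPM in WT and 7.66 to 8.18 CPM in R783H, of trophoblast at 75.3 to 81.8 and 44.6 to 49.9 CPM, and of neural progenitors at 116.2 to 121.3 and 83.4 to 91.2 CPM. Markers within the pluripotent cell, neural progenitor, fibroblast and trophoblast lists moved in both directions. Of the 8 pluripotent cell markers, Tfcp2l1 and Dppa5a were called higher, at log2 fold changes of 0.17 and 0.30. Pou5f1, Nanog and Zfp42 were called lower, at -0.21, -0.23 and -0.36, and Sox2, Esrrb and Klf4 were not called. Of 4 tested neural progenitor markers Sox1 and Map2 were called higher, and Tubb3, which makes up most of that sum, was lower at 48.8 CPM against 85.0 CPM on average. Of 4 tested fibroblast markers Twist1 was called higher, at 5.48 CPM against 2.71 CPM, and Thy1 lower, at 0.194 CPM against 1.31 CPM. Of 4 tested trophoblast markers Gata3 was called higher and Cdx2, Eomes and Tfap2c lower. In the mesoderm list 4 of 5 tested were called lower, and in the primitive endoderm list 2 of 5, Gata4 and Sox17, were called higher. Sox7, also a primitive endoderm marker, was not tested. It went the other way, at 0.102 CPM in R783H against 0.667 CPM in WT on average, with no overlap. Each list but the first has 7 genes, and Mesp1, Elf5, Neurog2 and Postn had at most 3 counts in any library. The part of such cells in the results below was not tested. Values of single libraries are given in the order A, B, C. In bulk RNA, fewer cells expressing a gene and less RNA per cell cannot be told apart.

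Of the 10 genes, 4 were higher in R783H, 4 were lower, Peg3 did not pass the test, and Snrpn was listed at 0 in every library. Plagl1 rose 1.47-fold and Sgce 1.37-fold, while Zrsr1 and Impact rose 1.18-fold and 1.16-fold. Ndn fell 2.14-fold, Nnat 2.04-fold, Mest 1.34-fold and Peg10 1.23-fold. Over all 14199 tested genes 33.5% were called higher and 30.9% lower, 64.5% in all, by edgeR's quasi-likelihood test at a Benjamini-Hochberg adjusted p under 0.05. Calls among 8 of 9 tested genes thus stand beside a background in which most genes were called. The median log2 fold change of the 9 genes was 0.15, against 0.029 over all tested genes. All 9 had at least 87 counts in every library, so none passed the filter on low counts through 1 group alone. Summed over the 9, the level was 1216 to 1310 CPM in WT and 1127 to 1272 CPM in R783H, which overlap. The 4 genes called higher and the 4 called lower had no overlap between groups. Of all tested genes 68.1% had none, 35% with R783H above and 33.1% with R783H below.

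**Figure D1:**
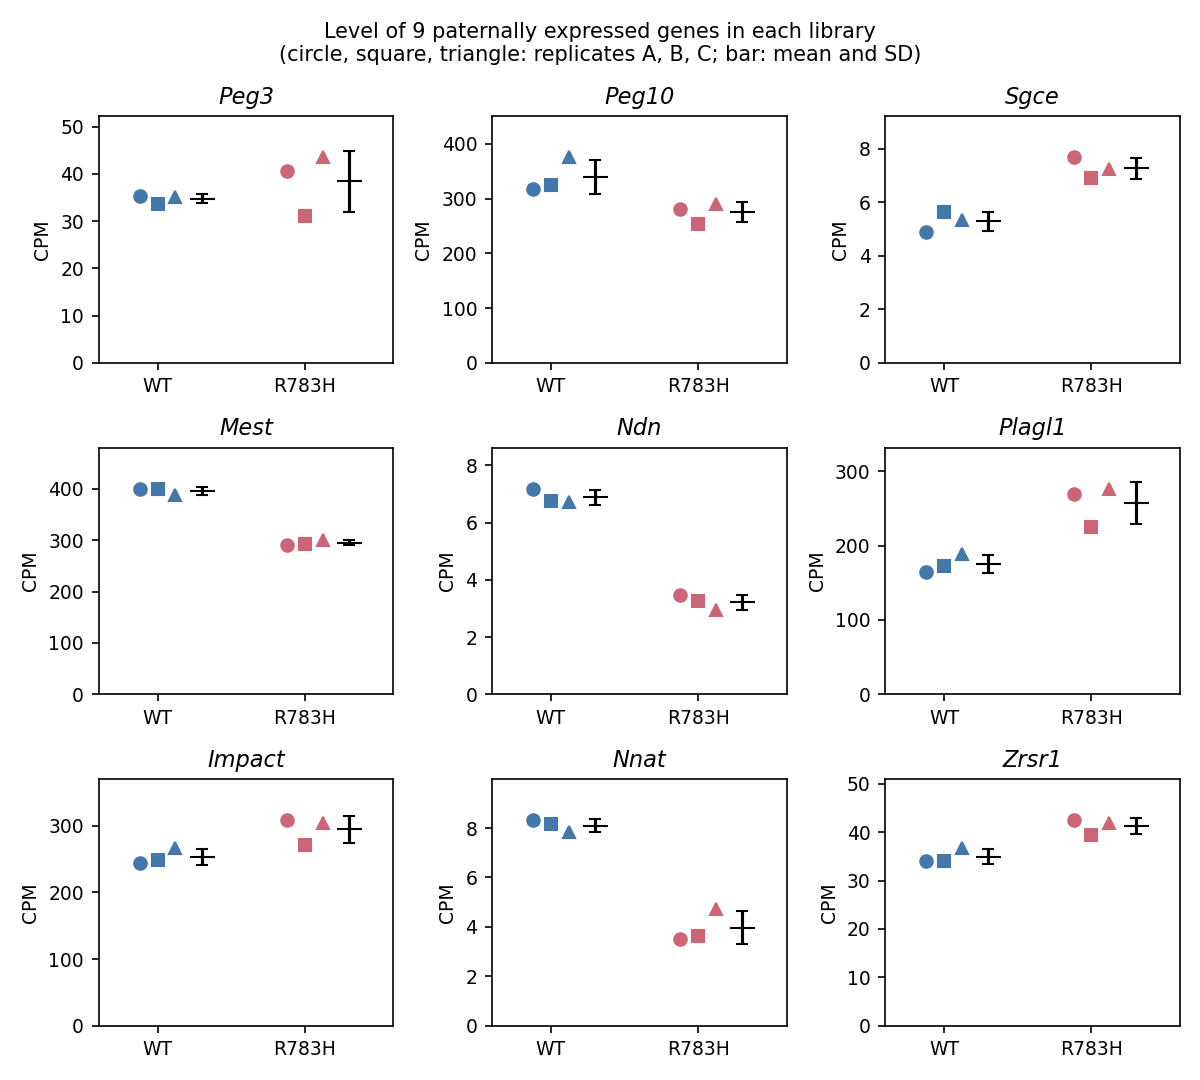
CPM of each of the 9 detected genes in the 3 WT (blue) and 3 R783H (red) libraries, each panel on its own axis from 0, with the mean and SD beside the points. The groups overlap for Peg3 and are apart for the other 8 genes, with Ndn falling from 6.88 to 3.21 CPM and Plagl1 rising from 175 to 257 CPM on average.

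Plagl1, also called Zac1, encodes a zinc finger transcription factor that arrests growth and regulates other imprinted genes. It lies at chr10:13060504-13131694. The R783H libraries held 270, 224.6 and 277 CPM and the WT libraries 164, 172 and 189 CPM. The lowest R783H library, B, was above the highest WT library. The difference was 0.55 (SE 0.08) on the log2 scale, at an edgeR adjusted p of 7.88e-05. It ranked at the 82.8th percentile of log2 fold changes over all tested genes. Beside it Phactr2, a regulator of phosphatase and actin, rose by 1.47 (SE 0.13) on the log2 scale, from 3.93 ± 0.491 to 10.98 ± 1.35 CPM (SD, n = 3). The neighbouring Ltv1, a ribosome assembly factor, and Sf3b5, a splicing factor subunit, changed by -0.54 (SE 0.04) and -0.47 (SE 0.05). Neighbours of Plagl1 thus moved in both directions.

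Peg3 encodes a large zinc finger protein expressed in embryo, placenta and brain, and lies at chr7:6703892-6730431. Levels in R783H were 40.6, 31.1 and 43.5 CPM and in WT 35.3, 33.6 and 35.2 CPM. R783H B was below every WT library and the other R783H libraries were above all of them. This is a log2 fold change of 0.15 (SE 0.10), at an edgeR adjusted p of 0.23, so no difference was called. Without R783H B it was 0.26 with an adjusted p of 5.76e-04, and with an offset for transcript length and GC content it was -0.16 with an adjusted p of 0.0583. The sign and the call of Peg3 therefore depended on these settings. Usp29, which shares the bidirectional promoter of Peg3, had 3 to 10 counts in a library and was not tested. Zim1, a maternally expressed neighbour, stood at 0.529 ± 0.239 CPM in WT and 0.500 ± 0.142 CPM in R783H (SD, n = 3).

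Peg10 and Sgce are head-to-head neighbours on chromosome 6, with annotated starts 99 bases apart, and they moved in opposite directions. Peg10, a gene derived from a retrotransposon and needed for the placenta, lies at chr6:4747306-4760517 on the plus strand. The R783H libraries held 281, 254 and 291 CPM and the WT libraries 317, 325 and 375 CPM. Every R783H library was below every WT library. On the log2 scale the change was -0.30 (SE 0.07), at an edgeR adjusted p of 0.0026. Sgce encodes epsilon-sarcoglycan, a membrane protein whose loss on the paternal copy causes myoclonus dystonia in people, and lies at chr6:4674350-4747207 on the minus strand. Levels in R783H were 7.69, 6.91 and 7.26 CPM and in WT 4.90, 5.63 and 5.34 CPM. All R783H libraries were above all WT libraries, at 196 to 231 counts against 99 to 138. The difference was 0.46 (SE 0.10) on the log2 scale, at an edgeR adjusted p of 0.0022.

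The ratio of Peg10 to Sgce counts inside a library does not depend on scaling between libraries. It was 36.6, 36.8 and 40.0 in the R783H libraries and 64.8, 57.7 and 70.2 in the WT libraries. The difference of mean log2 ratios was -0.76, with p = 0.1 in a two-sided exact permutation test, the smallest p that 3 libraries against 3 allow. The groups did not overlap. Beside this pair 4 more genes of the domain were tested. Ppp1r9a, a neuronal actin-binding protein gene, rose by 0.63 (SE 0.12). Pon3, a lactonase, rose by 0.63 (SE 0.16) and Casd1, a sialic acid acetyltransferase, by 0.32 (SE 0.09). Pon2, a lactonase next to Pon3, changed by -0.44 (SE 0.10). Of these 6 tested genes only Peg10 and Pon2 were called lower.

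**Figure D2:**
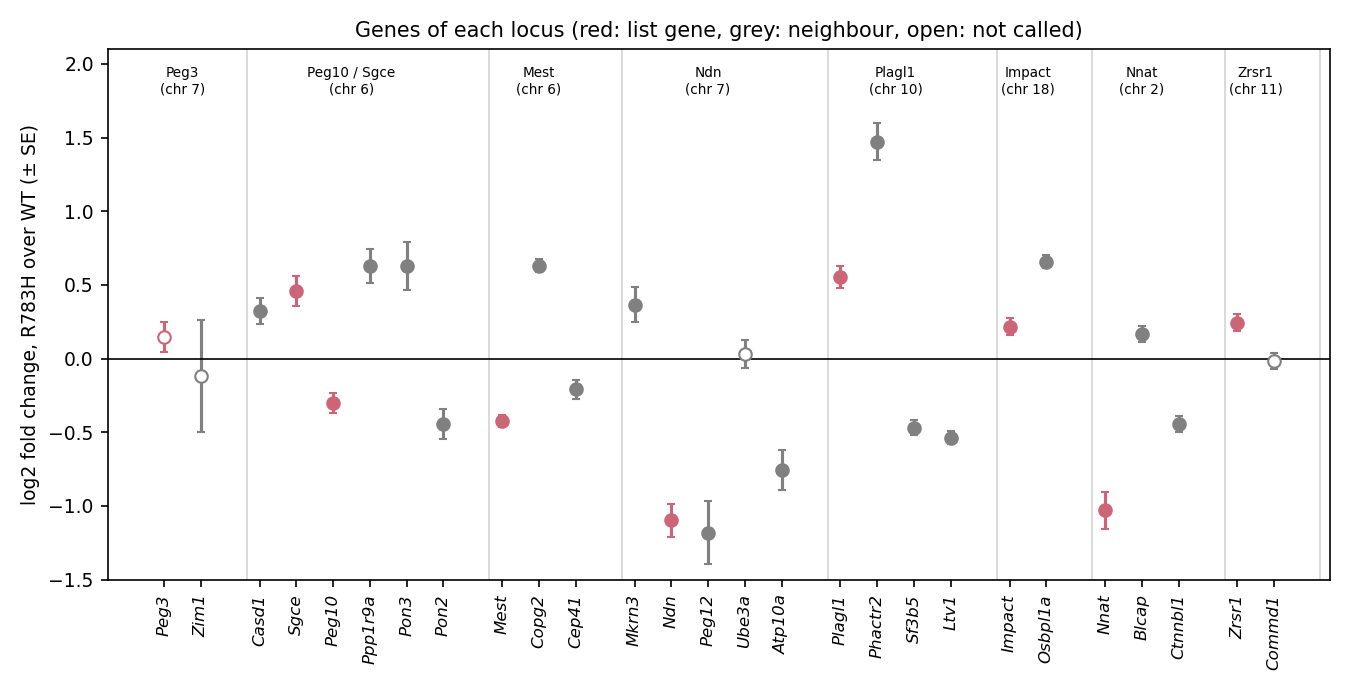
Log2 fold change of R783H over WT with its SE for the genes described here (red) and the tested neighbours at each locus (grey), with filled points called and open points not called; positions along the axis are not to scale. Peg10 at -0.30 and Sgce at 0.46 lie on opposite sides of 0, as do Mest at -0.42 and Copg2 at 0.63, and Nnat at -1.03 and its host gene Blcap at 0.17.

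Mest, also called Peg1, encodes an enzyme of the alpha/beta hydrolase fold that is abundant in mesoderm, and its WT level per length was the highest of the 9 genes. It lies at chr6:30723547-30748465. The R783H libraries held 291, 294 and 301 CPM and the WT libraries 400.2, 399.6 and 388 CPM. The libraries of a group lay close together and the groups far apart. This is a log2 fold change of -0.42 (SE 0.04), at an edgeR adjusted p of 3.64e-06. Copg2, a coat protein gene that runs towards Mest on the opposite strand, rose by 0.63 (SE 0.04) on the log2 scale, from 117.3 ± 0.683 to 182 ± 5.80 CPM (SD, n = 3). Of 3945 annotated exon bases of Mest, 912 are shared with Copg2. Whether strand was used in counting is not given, so reads of the shared part cannot be assigned with certainty. Cep41, the next tested gene, changed by -0.21 (SE 0.06), a call lost without WT C and with scaling by library size alone.

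Snrpn and Ndn belong to the Prader-Willi region of chromosome 7. Snrpn encodes SmN, a variant of a core protein of spliceosomal particles that is prominent in neurons and stem cells. It had 0 counts in all 6 libraries, where 3 counts would be 0.0998 to 0.149 CPM. Snurf, the upstream reading frame of the same transcript, was also listed at 0 in every library. In the RefSeq table both genes end at the same base, chr7:59982495, and in GENCODE M21 all 216 exon bases of Snurf lie in Snrpn exons. Snrpn also shares 589 of its 2159 exon bases with Gm38393 on the same strand, and matches Gm5802 at 95.3% identity over 700 nt. Whether the counting dropped reads shared between these entries was not tested, so the zeros are not read as absence and no fold is given. Snrpb, which encodes the closely related SmB protein, stood at 420.4 ± 9.02 CPM in WT and 234 ± 16.6 CPM in R783H (SD, n = 3), a difference of -0.85 (SE 0.05) on the log2 scale. Of 10 Sm core and SMN complex genes 8 were called lower and 0 higher (median -0.35 on the log2 scale), against 30.9% of all genes called lower. The number called lower was 6 with upper quartile factors, with library size alone and without the filter on low counts. With a library left out it ran from 6 to 10. Their longest transcripts were 669 to 3036 nt. Among tested genes binned by transcript length, 35.7% to 44.9% were called lower in the bins of that range. Smn1, the gene of the survival motor neuron protein, changed by -0.82 (SE 0.06) and Snrpd1, another Sm protein gene, by -0.54 (SE 0.05).

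Ndn encodes necdin, a MAGE family protein that restrains growth in neurons, and lies at chr7:62346569-62350262. Its counts were 104, 92 and 87 in the R783H libraries and 145, 166 and 143 in the WT libraries, or 3.46, 3.24 and 2.94 CPM against 7.18, 6.77 and 6.70 CPM. The raw counts were lower in R783H although those libraries were deeper, and no value overlapped. The log2 fold change of -1.10 (SE 0.11), at an edgeR adjusted p of 7.39e-06, lay at the 2.44th percentile of all tested genes. Peg12, another paternally expressed gene of the region, changed likewise by -1.18 (SE 0.21), at 16 to 37 counts in a library. Mkrn3, a ubiquitin ligase gene beside them, rose by 0.37 (SE 0.12), a call that was lost without R783H C, without WT B and with DESeq2. The maternally expressed Atp10a, a lipid flippase gene, changed by -0.76 (SE 0.13), and Magel2 had at most 3 counts in any library. Ube3a, the ubiquitin ligase gene of Angelman syndrome, stood at 54.2 ± 4.58 CPM in WT and 55.4 ± 7.82 CPM in R783H (SD, n = 3), and was not called. Under an offset for length and GC content Ube3a was at -0.39 and called. Genes of the region thus did not move as a block.

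Impact encodes an inhibitor of GCN1-dependent activation of the kinase GCN2, and so acts on the response to amino acid shortage. It lies at chr18:12955852-12992950. Levels in R783H were 308, 271 and 304 CPM and in WT 245, 248 and 267 CPM. The lowest R783H library was only just above the highest WT library. On the log2 scale the change was 0.22 (SE 0.06), at an edgeR adjusted p of 0.00572. Osbpl1a, the adjacent gene of a sterol-binding protein, rose by 0.66 (SE 0.05), from 60.9 ± 0.765 to 96.1 ± 3.36 CPM (SD, n = 3). The GCN2 pathway list also holds Eif2ak1, Eif2ak2 and Eif2ak3, the genes of other eIF2 kinases. Of its 10 tested genes 5 were called higher and 2 lower (median 0.22 on the log2 scale), against 33.5% and 30.9% of all tested genes. Eif2ak3 was among those called higher, Eif2ak1 among those called lower, and Eif2ak2 was not called. The number of the list called lower was 1 without WT A and with scaling by library size alone, and 4 without R783H B. Eif2ak4, which encodes GCN2, rose by 0.32 (SE 0.05) and Ppp1r15b, a regulator of eIF2 phosphatase, by 0.31 (SE 0.05). Eif2s1, the substrate subunit eIF2-alpha, changed by -0.57 (SE 0.04).

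Nnat encodes neuronatin, a small membrane proteolipid, and lies at chr2:157560078-157562522 within an intron of Blcap. Its counts were 106, 103 and 140 in the R783H libraries and 168, 200 and 167 in the WT libraries, or 3.53, 3.63 and 4.73 CPM against 8.32, 8.15 and 7.83 CPM. R783H C was the highest of its group and still below every WT library. The difference was -1.03 (SE 0.12) on the log2 scale, at an edgeR adjusted p of 2.67e-05, at the 2.92th percentile of all tested genes. Blcap, the host gene, rose by 0.17 (SE 0.06), a call lost with DESeq2 and without R783H A, R783H C, WT A or WT C. Ctnnbl1, a spliceosome-associated gene beyond Blcap, changed by -0.44 (SE 0.06). Exons of Nnat share 87 bases with a small RNA gene on the other strand and none with Blcap in GENCODE M21.

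Zrsr1 is a retrotransposed copy of the X-linked splicing factor gene Zrsr2, and lies at chr11:22972005-22976496 inside Commd1. The R783H libraries held 42.5, 39.4 and 42.0 CPM and the WT libraries 34.01, 34.01 and 36.7 CPM. All R783H libraries were above all WT libraries. This is a log2 fold change of 0.24 (SE 0.06), at an edgeR adjusted p of 0.00336. Zrsr2 was lower in R783H, at 69.8 ± 1.72 CPM against 87.2 ± 1.30 CPM in WT (SD, n = 3), or -0.32 (SE 0.05) on the log2 scale. The count ratio of Zrsr1 to Zrsr2 was 0.598, 0.581 and 0.595 in R783H and 0.397, 0.386 and 0.419 in WT, in the order A, B and C. The difference of mean log2 ratios was 0.56, with p = 0.1 in a two-sided exact permutation test, the smallest p this design allows. As the 2 ratios tested gave the same p, their Benjamini-Hochberg adjusted exact p was also 0.1. Commd1, a copper homeostasis gene, stood at 60.5 ± 1.59 CPM in WT and 59.9 ± 3.48 CPM in R783H (SD, n = 3). Zrsr1 shares 412 of its 4492 exon bases with Commd1 on the opposite strand. Of 12 genes of the 3′ splice site and minor spliceosome list 7 were called lower and 1 higher. Their median was -0.22 on the log2 scale. Over all tested genes 30.9% were called lower and 33.5% higher. Longest transcripts of the list ran from 792 to 6689 nt. In length bins of that range 16.8% to 44.9% of tested genes were called lower. The share was 40.9% in the bin of U2af2 and 43.8% in that of Snrnp25 and U2af1l4. With scaling by library size alone 5 of the list were called lower. The largest changes were in U2af2 at -0.63 (SE 0.05), Snrnp25 at -0.38 (SE 0.07) and U2af1l4 at -0.36 (SE 0.06). The 1 gene called higher, Snrnp48, named here after its values were seen, was not called with the length and GC offset or without R783H A, R783H C, WT A or WT B.

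**Figure D3:**
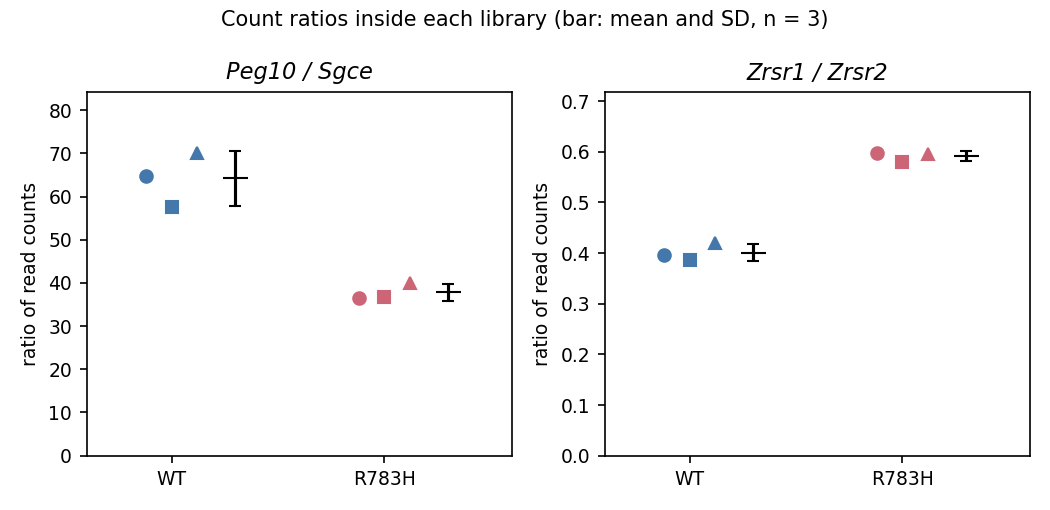
Count ratios of Peg10 to Sgce and of Zrsr1 to Zrsr2 inside each library, with axes from 0, circles, squares and triangles for replicates A, B and C, and the mean and SD (n = 3) beside them. The Peg10 to Sgce ratio was 64.2 ± 6.28 in WT and 37.8 ± 1.93 in R783H, and the Zrsr1 to Zrsr2 ratio 0.401 ± 0.0171 in WT and 0.591 ± 0.00930 in R783H.

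Per kilobase of the longest annotated transcript, the WT order was Mest at 149 ± 2.65 CPM per kb, Impact at 67.3 ± 3.18, Peg10 at 50.9 ± 4.71 and Plagl1 at 33.3 ± 2.36. Lower down stood Zrsr1 at 7.77 ± 0.346 CPM per kb, Nnat at 5.59 ± 0.172, Peg3 at 3.99 ± 0.110, Ndn at 1.86 ± 0.0698 and Sgce at 1.198 ± 0.0828 (SD, n = 3). No 2 neighbours in this order overlapped between WT libraries. The place of Ndn rests on its annotated length. With the RefSeq length of 1652 nt in place of 3694 nt it was 4.17 ± 0.156 CPM per kb in WT, beside Peg3 and overlapping it. In R783H, Plagl1 at 48.9 ± 5.38 and Peg10 at 41.3 ± 2.85 CPM per kb overlapped in range and stood in the reverse order, and Nnat at 2.74 ± 0.459 was below Peg3 at 4.42 ± 0.747.

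Log2 fold changes were higher for longer transcripts over all tested genes (Spearman's rho 0.256 across genes, which are not independent), and the 9 genes span much of that range. The median log2 fold change went from -0.17 in the shortest to 0.31 in the longest of 10 length bins of near-equal size. Nnat, with a transcript of 1448 nt, lay in a bin with a median of -0.15, and Mest, with 2665 nt, in a bin with a median of -0.051. Both fell by more than those medians. Ndn and Impact shared a bin with a median of -0.0077. Sgce, Zrsr1 and Plagl1 lay above the medians of their bins, at 0.072, 0.11 and 0.19. Peg10, with 6667 nt, was in the same bin as Plagl1 and moved against it, and Peg3, with 8694 nt, was below its bin's median of 0.31. Once length and GC content were offset, all 8 calls and their directions held. The change in Plagl1 was then 0.39, in Sgce 0.28, in Impact 0.13 and in Zrsr1 0.12. That in Peg10 was -0.53, in Mest -0.42, in Nnat -0.87 and in Ndn -1.17.

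**Figure D4:**
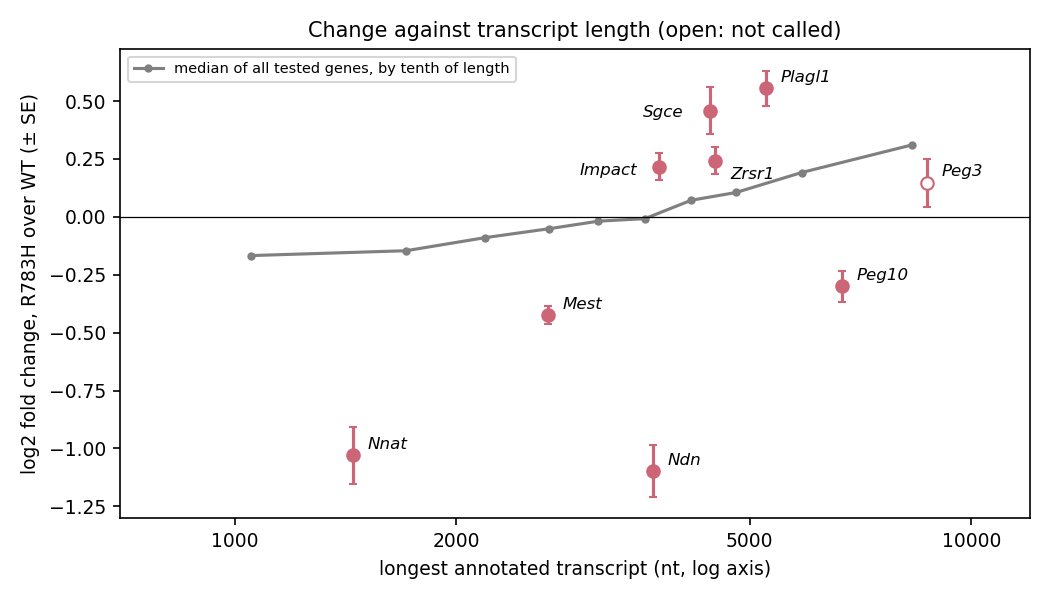
Log2 fold change with its SE against the length of the longest annotated transcript (log axis) for the 9 genes, with Peg3 open because it was not called, and the median of all tested genes in each of 10 length bins in grey. Nnat, Ndn, Mest and Peg10 lie below the grey line, Sgce, Impact, Zrsr1 and Plagl1 above it.

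**Figure D5:**
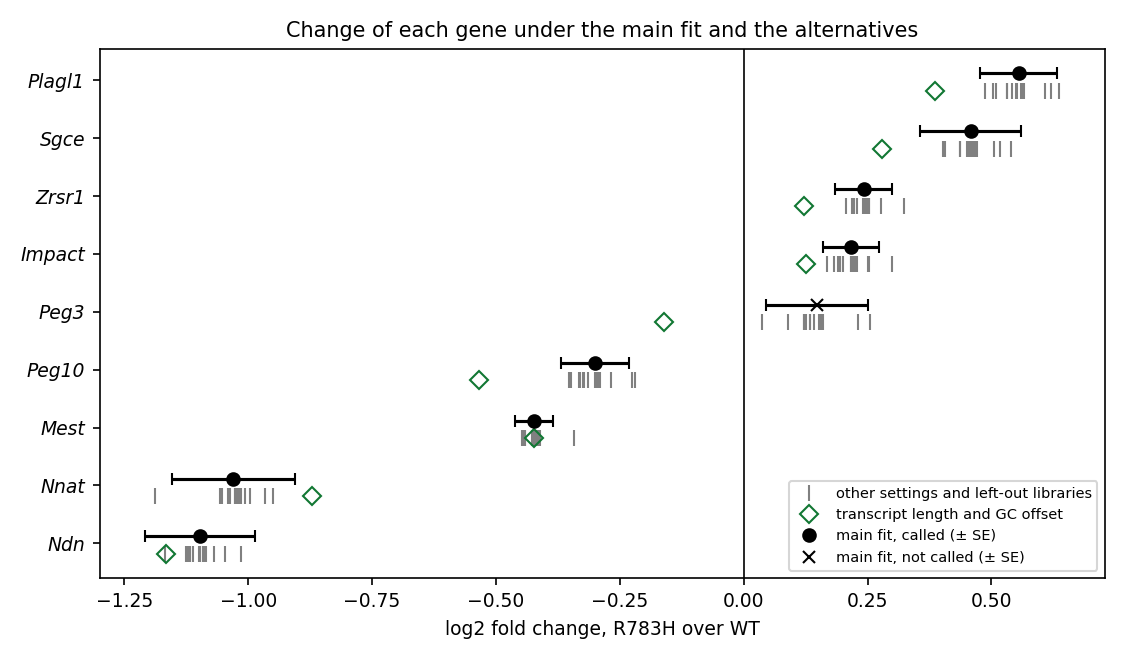
Log2 fold change of each gene with its SE (black), under the length and GC offset (green diamonds) and under the other settings and left-out libraries (grey ticks). For 8 genes every value stays on 1 side of 0, and for Peg3 the offset value of -0.16 lies on the other side.

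Other imprinted genes outside the Dlk1-Dio3 and distal chromosome 7 clusters also moved in both directions. Of 10 tested further paternally expressed genes 2 were called higher and 5 lower (median -0.066 on the log2 scale), beside 33.5% and 30.9% of all tested genes. Scaling by library size alone gave 3 higher and 3 lower. With DESeq2, without R783H C and without WT B 1 was called higher, and without R783H B 3 were. Sfmbt2, a Polycomb-related gene, rose by 0.86 (SE 0.09), from 20.9 ± 1.82 to 38.0 ± 3.80 CPM (SD, n = 3). Mcts2, a retrotransposed copy of Mcts1 between which reads may be split, changed by -0.79 (SE 0.07) and Gnasas1, the antisense RNA of the Gnas locus also called Nespas, by -0.58 (SE 0.09). Of 12 tested genes listed as maternally expressed 6 were called higher and 3 lower (median 0.33 on the log2 scale). Whether these cells express them from the maternal copy alone was not tested. Igf2r, the receptor that clears IGF2, rose by 0.94 (SE 0.04), from 88.4 ± 1.87 to 169 ± 5.57 CPM (SD, n = 3). Grb10, a growth factor receptor adaptor, rose by 0.98 (SE 0.07) and Trappc9, a vesicle trafficking gene, by 0.90 (SE 0.05). Under the length and GC offset 5 maternally expressed genes were called lower. Over 18 tested neighbours of the described genes, some of which are in these 2 lists, 8 were called higher and 7 lower (median 0.0088 on the log2 scale).

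A list of 21 genes that act on imprints held factors that establish or keep them, and also the DNA demethylation enzyme genes Tet1 and Tet2. Of the 21, 9 were called higher and 6 lower, beside 33.5% and 30.9% of all tested genes. The median log2 fold change of the list was -0.00358. Tet1 and Tet2, named here after their values were seen, were among those called higher, at 0.35 and 0.41. With the length and GC offset 5 of the 21 were called higher and 10 lower. Trim28, the corepressor recruited by ZFP57, changed by -0.87 (SE 0.06), from 3507 ± 245 to 1914 ± 108 CPM (SD, n = 3), at an edgeR adjusted p of 3.98e-07. Zfp57 itself stood at 476 ± 5.36 CPM in WT and 461 ± 24.9 CPM in R783H (SD, n = 3) and was not called. Dnmt1 rose by 0.25 (SE 0.04), and was at 0.070 without a call under the offset. Arid4b, a chromatin protein gene, rose by 0.56 (SE 0.12). Dppa3, which protects maternal methylation in the zygote, had counts of 28, 85 and 88 in the WT libraries and 139, 152 and 125 in the R783H libraries. Its log2 fold change of 0.64 (SE 0.26) had an edgeR adjusted p of 0.0497, and the call was lost without R783H A, R783H B, WT A or WT B, where it ranged from 0.32 to 0.76. The call was also lost with RLE factors, with a filter of 10 counts in every library and at equal depth.

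The gene most like each of the 9 in profile was sought among 11688 genes, by the root mean square difference of log2 CPM over the 6 libraries after centring on the WT mean. The nearest were Zfp318 for Plagl1 (0.0211), Fhl1 for Sgce (0.0258), Tmem168 for Zrsr1 (0.0153), 6030458C11Rik for Impact (0.0127) and Ube2q2 for Peg3 (0.0388). For the genes that fell they were Tmed5 for Peg10 (0.0358), Tpd52l2 for Mest (0.0175), Trp53rkb for Ndn (0.0427) and Vstm5 for Nnat (0.0605). None of the 9 was nearest to another of them. Profiles as close as 0.1 were common for Mest, with 1245 genes, and scarce for Ndn and Nnat, with 32 and 11.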

How the data were processed

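The authors deposited 1 table of raw read counts per Entrez gene, with a column per alignment file, per the file header. Per the submitters' processing notes, CASAVA 1.4, HISAT2 and SAMtools and the build mm10 were used; the counting tool, annotation and use of strand are not given in the sources used here. Of 27179 rows, 25275 matched a RefSeq symbol (GRCm38.p6), and 0 columns were left unassigned. Positions, exon sharing, transcript length and GC content came from GENCODE M21 on GRCm38; coordinates are 1-based. Transcripts of the 10 genes were searched with BLAST 2.17.0 for at least 90% identity over 100 nt, with matches of at least 98% marked apart. At 98%, Mest matched Copg2, Zrsr1 matched Commd1, and Snrpn matched Snurf, Gm38393 and Gm18908. Below 98%, Snrpn also matched Gm5802, Gm35595 and Pdhx.

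Groups came from sample titles. With R 4.3.3 and edgeR 4.0.16, filterByExpr (minimum count 10, total 15) left 14199 genes, and a quasi-likelihood fit with TMM factors and group as its term was adjusted by Benjamini-Hochberg over all of them. SE is the log2 fold change divided by the square root of F. Alternatives used DESeq2 1.42.0, limma 3.58.1 voom, other factors and filters, equal depth, a length and GC offset (13067 genes), a replicate block and each library left out. On simulated counts of 14199 genes the fit called 83 of 100 genes changed 2-fold, 76 of 100 changed 1.5-fold and 7 of 13999 unchanged. Far fewer genes were changed there than the 64.5% called in the data, so these rates may not carry over. No molecular identifiers are named, so read counts may include copies of 1 molecule, and the 3-count floor covers counting error only.

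The 10 genes, lists and settings were chosen with earlier results of these data known. Named beside them are, per list, up to 3 called genes with the largest change and at least 50 counts in the higher group, all tested neighbours, and Snrpb, Zrsr2, Eif2ak4, Zfp57, Trim28, Dnmt1 and Dppa3.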

Additional observations from a re-analysis of the deposited data

How the results depend on the processing

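Over 16 alternatives the 4 genes called lower and the 4 called higher kept their direction and call. Their number called higher ran from 4 to 5 with a library left out, the fifth being Peg3 without R783H B, and 4 were called lower each time. Peg3 was at -0.16 with the length and GC offset, where Ube3a was at -0.39. Scaling by library size alone turned Commd1 to 0.067 and Zfp57 to 0.037. With a library left out, Commd1 ran from -0.063 to 0.020, Ube3a from -0.041 to 0.12 and Zim1 from -0.38 to 0.28. The causes were not tested. The log2 ratio difference of Peg10 to Sgce ran from -0.84 to -0.69 and that of Zrsr1 to Zrsr2 from 0.54 to 0.60. Ratios with Snrpn were not run because it has no counts.

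Letters shared between groups did not pair the libraries, with correlations of deviations of -0.07, 0.00682 and 0.0851 for A, B and C. With a replicate block 4 of the genes were called higher and 4 lower, as without it, and the ratio differences of -0.76 and 0.56 had an exact sign-flip p of 0.25, the smallest possible. Low counts limit Ndn, Nnat and Sgce most.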
